A study of Mus musculus with 12 samples.

Results

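Described here are 10 genes that build the cytoskeleton of new neurons, taken by symbol from the 27095 genes of the deposited counts: Tubb3, Tubb2b, Map2, Mapt, Dcx, Stmn1, Stmn2, Gap43, Ina and Nefl. All 10 were found by gene ID, and all libraries were read at each of them. What was measured is H3K14ac, acetylation of histone H3 at lysine 14, by sequencing of precipitated chromatin (ChIP-seq) in neural stem and progenitor cells of the mouse. These were taken from the cortex and ganglionic eminences at E14.5. They were kept either as neurospheres, floating clusters of dividing cells (proliferating), or dissociated and grown on laminin with cortical neuron medium (differentiating). Of the 12 libraries, 6 were H3K14ac ChIP of wild-type (WT) cells, 3 per stage. The controls were, at each stage, 1 input library (WT chromatin without precipitation), 1 IgG ChIP (a non-specific antibody, genotype not given) and 1 H3K14ac ChIP of Hbo1 null cells, in which the histone acetyltransferase gene Kat7, also called Hbo1, is deleted. The labels tie no replicate number to a culture or an animal, so p-values measure the spread between libraries only, which may be technical. The values are counts of precipitated DNA and not of RNA, and a mark on fewer cells cannot be told apart from less of the mark per cell.

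Axons and dendrites are held in shape by microtubules, polymers of alpha and beta tubulin, and by neurofilaments. Tubb3 and Tubb2b are beta tubulins; Map2 and Mapt (tau) are proteins that bind and stabilise microtubules in dendrites and axons, and Dcx (doublecortin) does so in migrating young neurons. Stmn1 and Stmn2 bind tubulin dimers and destabilise microtubules, Gap43 is a membrane protein of growth cones, the moving tips of axons, and Ina and Nefl are subunits of neurofilaments. Acetylated H3 is in general found around the start sites of active genes, where CpG-rich promoters are common, and these genes are used as markers of neurons.

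For each gene 2 raw counts were deposited: over the first 1000 bases from the transcription start (the TSS window) and over the whole gene (the gene body, which contains the window). Values are given as CPM, counts per 1e6 gene body counts of the same library. Gene body counts summed to between 3992697 and 7611239 in the proliferating WT libraries and between 12549913 and 17074249 after differentiation. Input libraries held 11871306 and 12689734, IgG 2526252 and 2771713, and the Hbo1 null libraries only 64071 and 320601. A member's TSS window held 2 to 28 counts in a WT library, so the depth limits every statement on single windows. In simulated data windows with 2-fold changes were called in 11% of cases and windows with 4-fold changes in 98.5% for the comparison of stages. Libraries of one group also differed in content. Counts of 5 single-copy Y genes came to 47.1 CPM in proliferating WT replicate 1 and 209 CPM in differentiating WT replicate 3, against 8.77 to 9.94 in the 4 other WT libraries. These 2 WT libraries, together with the IgG libraries, carried 2.00% to 2.49% of their gene body counts on the X chromosome, against 3.21% to 3.94% in the other WT libraries and the inputs. Markers of neural stem cells (10 genes, none at 0 in any WT library) held 2.59 to 3.54 times the input in proliferating and 1.37 to 2.00 times in differentiating WT libraries, while 10 other neuron markers held 0.942 to 1.24 times the input across the 6. IgG held 1.53 (proliferating) and 0.903 times (differentiating) at the stem cell markers. Across the 6 WT libraries, 7 oligodendrocyte markers held 1.31 to 1.76 times the input and 6 astrocyte markers 0.942 to 1.70 times. The range was 0.774 to 1.23 for 8 microglia and endothelial markers and 0.807 to 1.26 for 14 of liver, muscle and blood.

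The RefSeq promoters (250 bases before to 50 after the start, GRCm38.p6, the assembly of mm10) of 4 members were at hand, and 1 is shown for each. Dcx had another, not shown, with its start at chrX:143933124. It overlaps the one shown and held 3 CpG pairs at 44.7% GC. None was at hand for Tubb2b, Mapt, Stmn1, Stmn2, Gap43 and Nefl. The 4 shown differ in a feature that moved with the signal over all genes, the number of CpG pairs. CpG pairs are in capitals, and each line reads 5′ to 3′ along the gene.
Map2, chr1:66175079-66175378, plus strand: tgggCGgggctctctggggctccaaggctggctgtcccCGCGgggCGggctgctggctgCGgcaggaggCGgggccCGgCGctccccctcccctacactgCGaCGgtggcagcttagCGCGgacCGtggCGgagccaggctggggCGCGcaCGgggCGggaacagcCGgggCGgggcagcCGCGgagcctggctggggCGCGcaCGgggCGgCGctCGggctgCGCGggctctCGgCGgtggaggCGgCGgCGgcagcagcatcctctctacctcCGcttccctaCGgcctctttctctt
Tubb3, chr8:123411303-123411602, plus strand: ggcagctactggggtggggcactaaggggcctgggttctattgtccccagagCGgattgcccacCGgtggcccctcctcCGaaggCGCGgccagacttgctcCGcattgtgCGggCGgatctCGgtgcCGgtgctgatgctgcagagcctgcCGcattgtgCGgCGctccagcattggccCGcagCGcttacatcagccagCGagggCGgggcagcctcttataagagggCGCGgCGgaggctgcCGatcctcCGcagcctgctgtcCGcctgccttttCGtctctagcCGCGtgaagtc
Ina, chr19:47014431-47014730, plus strand: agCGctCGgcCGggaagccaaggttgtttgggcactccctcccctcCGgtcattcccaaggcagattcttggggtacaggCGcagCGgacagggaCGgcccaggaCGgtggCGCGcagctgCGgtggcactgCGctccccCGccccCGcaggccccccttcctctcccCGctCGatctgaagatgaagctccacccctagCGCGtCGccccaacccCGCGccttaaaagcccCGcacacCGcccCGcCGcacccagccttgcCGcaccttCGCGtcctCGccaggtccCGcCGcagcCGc
Dcx, chrX:143933170-143933469, minus strand: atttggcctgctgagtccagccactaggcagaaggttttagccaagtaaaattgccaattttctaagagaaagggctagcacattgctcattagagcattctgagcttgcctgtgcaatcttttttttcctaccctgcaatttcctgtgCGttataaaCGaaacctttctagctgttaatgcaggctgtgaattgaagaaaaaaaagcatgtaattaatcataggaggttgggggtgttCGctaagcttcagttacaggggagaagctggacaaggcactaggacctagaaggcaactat
Map2 held 37 CpG pairs at 77.7% GC, Ina 32 at 71.7%, Tubb3 26 at 67.3% and Dcx 3 at 43%, beside a median of 7 CpG pairs over the 32851 promoters of the table. The GC box GGGCGG, searched on both strands, was found 5 times in Map2 and 2 times each in Tubb3 and Ina, and in 35.7% of all promoters. Each such box contains a CpG pair, so this count is not independent of the first. The E-box letters CANNTG, which read the same on either strand apart from their middle, occurred 1 time in Ina and in 72.3% of all promoters. TATAAA occurred 1 time in Dcx and in 13.6% of all. The letters TTCAGCACC, the beginning of the element bound by REST, were in none of the 4 windows and in 0.371% of all. Where the counted start is the RefSeq start, only the last 50 bases of each sequence lie inside the TSS window. The deposited length of Ina is 9661 bases against 10647 in RefSeq, and that of Tubb3 10447 against 10463. Of the members without a promoter at hand, Nefl has 3862 against 5233 and Mapt 100661 against 102682. The counted starts of Ina, Tubb3, Nefl and Mapt may therefore differ from the RefSeq starts. Over all genes with a promoter in the table, windows in the third with the most CpG pairs held 1.86 to 2.15 times the input in proliferating and 1.07 to 1.37 times in differentiating WT libraries. The third with the fewest held 1.00 to 1.12 and 0.953 to 1.02 times the input.

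The 2 beta tubulin genes stood apart from each other. Tubb2b (gene ID 73710, chr13:34127008-34130354) carried more H3K14ac signal than input at its start in every WT library. Its TSS window held 1.98, 2.25 and 2.50 CPM in the proliferating WT libraries, 1.27, 1.02 and 0.996 in the differentiating ones, 1.10 and 0.473 in the 2 inputs and 0.396 and 0.722 in IgG. CPM was lower in differentiating WT libraries, and the 2 inputs differed in the same direction. TSS windows of all genes together also held less, 3.45% of gene body counts against 4.77%. Relative to input of its stage the window was 2.04-fold in proliferating and 2.30-fold in differentiating libraries on average. In the fit of the 6 WT and the 2 input libraries, adjusted for stage and scaled by gene body totals, Tubb2b was higher (log2 1.10, SE 0.38, edgeR adjusted p = 0.0345, n = 6 and 2). Map2 was higher too, and these were 2 of the 7 members with enough counts to be tested. Among all 21557 windows tested, 11.6% were higher and 0.881% lower, with a median log2 of 0.25. With TMM scaling of the windows, which moved that median to −0.02 and changed the calls from 2507 higher and 190 lower to 1394 and 649, Tubb2b was no longer past the threshold (log2 0.78, adjusted p = 0.177). Neither was it without proliferating replicates 2 (adjusted p = 0.0505) or 3 (0.0894), without differentiating replicate 1 (0.0632), or without the proliferating (0.493) or the differentiating input (0.106).

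Over the whole Tubb2b gene, which is 3.347 kb long, the 3 proliferating WT libraries held 6.38, 7.26 and 6.31 CPM and the differentiating ones 4.46, 2.97 and 3.87. The inputs held 3.79 and 2.68 and IgG 1.98 and 2.53, so all 6 WT libraries lay above the input of their own stage. The gene body was higher than input (log2 0.65, SE 0.21, edgeR adjusted p = 0.0347). It was 1 of 2 members called higher while 3 were called lower, beside 29.8% called of all 24848 bodies (8.43% higher and 21.3% lower), whose median log2 was −0.14. The call was lost without proliferating replicates 2 (adjusted p = 0.0577) or 3 (0.063), without differentiating replicate 1 (0.0573), and without the proliferating (0.327) or differentiating input (0.116). Between the stages Tubb2b showed the largest difference of any member body (log2 −0.78, SE 0.20, unadjusted p = 0.00317, edgeR adjusted p = 0.184, n = 3 each), and it did not pass. None of the 10 member bodies passed between stages, beside 0.163% of all 24564 bodies tested (0.0366% higher and 0.126% lower). Tubb2a, a near copy of Tubb2b, lies 49.0 kb away, and how reads that fit both were counted is not stated, so the values of both are uncertain.

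Tubb3 (gene ID 22152, chr8:123411553-123422015), the tubulin most used to mark young neurons, overlapped input at its window and lay below it over its body. Its window held 2.42, 0.751 and 1.05 CPM in proliferating WT and 1.20, 0.548 and 0.703 in differentiating WT libraries, 0.842 and 0.946 in the inputs and 0 and 0.361 in IgG. The WT and input values overlapped, and the highest value was that of proliferating replicate 1 alone. Relative to input of its stage the window averaged 1.47-fold in proliferating and 0.816-fold in differentiating libraries. The window was under the mean count of 10 required for a test. Its gene body held 10.3, 6.76 and 6.96 CPM in the 3 WT libraries of proliferating cells and 8.05, 7.35 and 8.02 after differentiation. All lay below the 11.8 and 11.4 of the inputs. IgG held 10.7 and 9.02, and the body was not called over it (log2 −0.31, SE 0.22, edgeR adjusted p = 0.497). The body was lower than input (log2 −0.56, SE 0.13, edgeR adjusted p = 0.0098), a call lost without the proliferating (−0.55, adjusted p = 0.138) or the differentiating input (−0.57, adjusted p = 0.133). Between stages it differed by a log2 of 0.01 (SE 0.17, 95% interval −0.32 to 0.34).

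**Figure D1:**
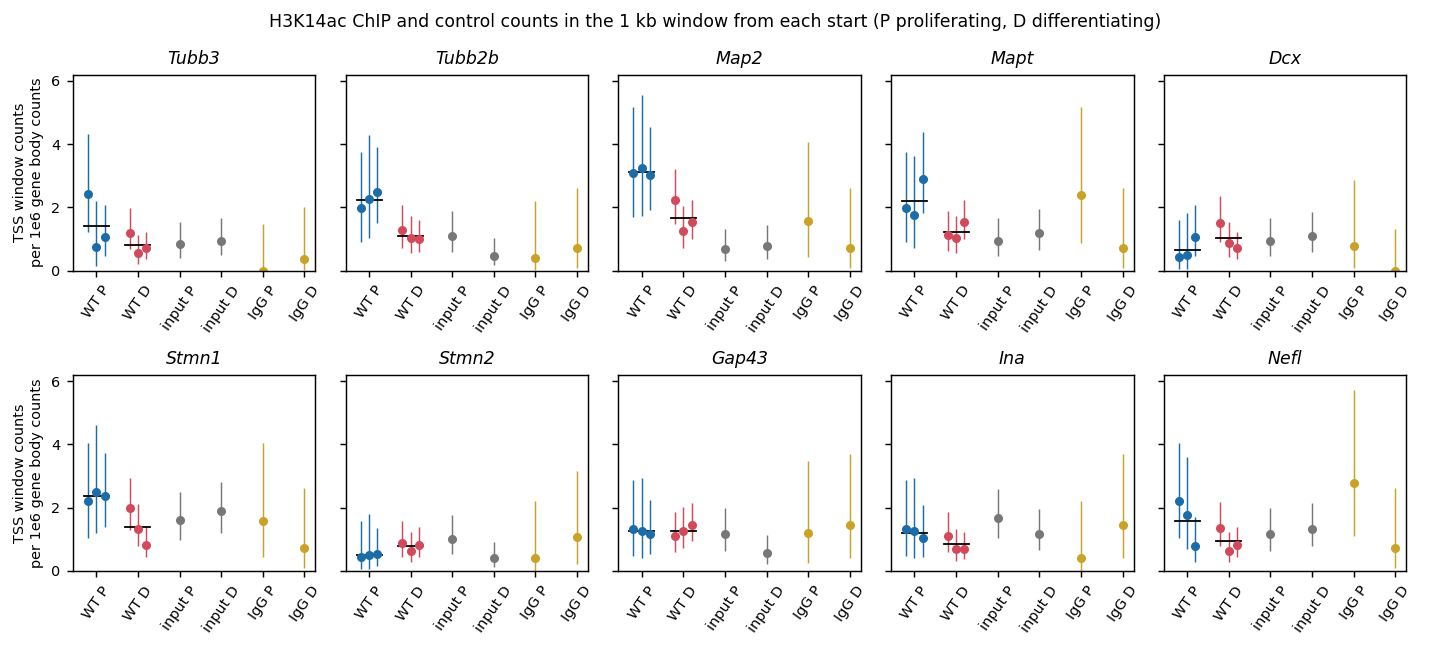
TSS window counts per 1e6 gene body counts of the library (vertical axis) for the 10 genes in each WT, input and IgG library; points are libraries, vertical lines 95% exact Poisson intervals of the count and black bars the mean of 3 WT libraries. Map2 is the gene whose 3 proliferating WT values (3.02 to 3.26) lie highest above its inputs (0.674 and 0.788).

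Map2 and Mapt, the classical microtubule-associated proteins of dendrites and axons, had the largest log2 over input of the 10 windows in proliferating cells. The Map2 window (gene ID 17756, chr1:66175202-66442583) held 3.08, 3.26 and 3.02 CPM in proliferating WT and 2.23, 1.25 and 1.52 in differentiating WT libraries. Input held 0.674 and 0.788 CPM and IgG 1.58 and 0.722. All 6 WT values lay above both inputs. Values were lower in differentiating WT libraries, as was the share of TSS windows of all genes together (3.45% of gene body counts against 4.77%). Over input of the same stage, log2 was 2.21 ± 0.06 (SD, n = 3) in proliferating and 1.04 ± 0.42 in differentiating libraries, and 1.23 and −0.13 in IgG. The WT libraries together were 3.06-fold above input (log2 1.62, SE 0.40, 95% interval 0.83 to 2.40, edgeR adjusted p = 0.00288), at the 97.7th percentile of all windows tested. Without the proliferating input the value was 1.06 and did not pass (adjusted p = 0.454), and without the differentiating input it was 2.18 (adjusted p = 0.000904). Without both WT libraries with many Y counts it was 1.64 (adjusted p = 0.0121).

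The gene body of Map2, 267.255 kb long, differed much less from input than its start. It held 209, 276 and 265 CPM in proliferating, 265, 282 and 286 in differentiating WT libraries and 216 and 224 in input, and was 1.20-fold above input (log2 0.26, SE 0.09, edgeR adjusted p = 0.0442). Proliferating replicate 1 lay below its input and the 5 others above, and the call was lost without any of proliferating replicates 2 and 3 and differentiating replicates 1 and 2 (adjusted p 0.0556 to 0.0997) and without the proliferating (0.191) or differentiating input (0.350). Map2 was the member with the most counts, 2660 per library on average in this comparison. The IgG libraries held 228 and 292 CPM over the body. Relative to IgG the WT libraries gave log2 0.03 (SE 0.10, edgeR adjusted p = 0.931).

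The Mapt window (gene ID 17762, chr11:104229409-104332090) held 1.98, 1.75 and 2.89 CPM in the 3 WT libraries of proliferating cells and 1.12, 1.02 and 1.52 after differentiation, 0.927 and 1.18 in the inputs and 2.38 and 0.722 in the IgG controls. The proliferating WT values lay above their input and the differentiating ones around it, while the proliferating IgG value lay among the WT values. The difference from input did not pass (log2 0.66, SE 0.35, edgeR adjusted p = 0.208). Without the differentiating input it did (1.32, adjusted p = 0.0404). Over its 100.661 kb body the 6 WT libraries held 82.0 to 98.6 CPM, the inputs 116 and 109 and the IgG controls 105 and 81.5. The Mapt body was not called over IgG (log2 −0.06, SE 0.11, edgeR adjusted p = 0.834). It was lower than input (log2 −0.34, SE 0.08, edgeR adjusted p = 0.00714). Without the proliferating input (adjusted p = 0.145) or the differentiating one (0.0766) it did not pass.

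Dcx (gene ID 13193, chrX:143855842-143933396) showed no excess at its start, where its promoter had few CpG pairs. Its window held 0.440, 0.501 and 1.05 CPM in proliferating WT and 1.51, 0.861 and 0.703 in differentiating WT libraries, beside 0.927 and 1.10 in the inputs and 0.792 and 0 in the IgG controls. WT and input overlapped at both stages. The gene body held 41.6, 67.6 and 60.0 CPM in the 3 WT libraries of proliferating cells and 70.4, 69.2 and 43.6 after differentiation, 60.7 and 67.7 in the inputs and 37.2 and 43.3 in the IgG controls. The 4 lowest values came from proliferating replicate 1, differentiating replicate 3 and both IgG libraries, the same libraries that had few X-linked and many Y-linked counts. Per 1e6 X-linked gene body counts, Dcx ran only from 1673 to 1936 over these 10 libraries. The CPM of this gene moved with the X-linked share of the library, and why that share differs was not tested. The Dcx body was not called over input (log2 −0.13, SE 0.18, edgeR adjusted p = 0.603) or over IgG (0.54, SE 0.23, adjusted p = 0.262), and the latter was called without differentiating replicate 3 (0.65, adjusted p = 0.0418).

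**Figure D2:**
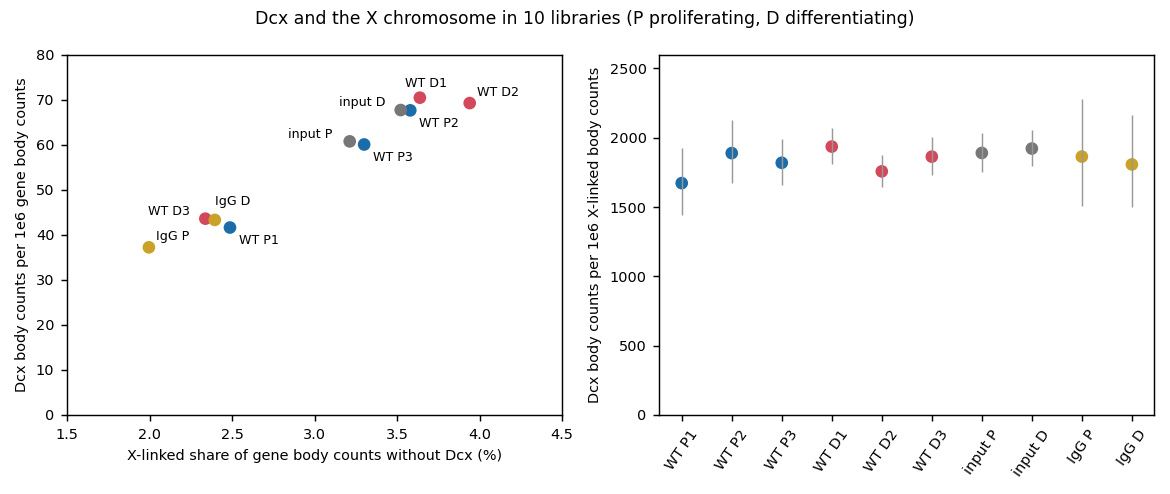
Left, Dcx gene body counts per 1e6 gene body counts against the X-linked share of gene body counts in percent, 1 labelled point per library; right, Dcx per 1e6 X-linked counts with 95% exact Poisson intervals. The 4 libraries with the lowest X-linked share (2.00% to 2.49%) have the lowest Dcx values, and per X-linked count all 10 lie between 1673 and 1936.

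At 2 of the stathmin and growth cone genes the inputs of the stages differed by more than the WT libraries. Stmn2 (gene ID 20257, chr3:8509527-8561604) had the emptiest start of the 10: 2, 2 and 4 counts in proliferating WT and 11, 8 and 14 in differentiating WT libraries. The inputs held 12 counts (proliferating) and 5 (differentiating). In CPM the WT values were 0.440, 0.501 and 0.526 against 1.01 in the proliferating input, and 0.876, 0.626 and 0.820 against 0.394 in the differentiating one. Every proliferating library lay below its input (mean log2 −1.05 ± 0.13, SD, n = 3) and every differentiating one above (0.96 ± 0.26). The IgG libraries went the same way, at log2 −1.35 and 1.46 over input on 1 and 3 counts, but these are divided by the same inputs. With a mean count of at least 1 in place of 10, the change between stages relative to that of the inputs was 1.97 (SE 1.01, edgeR adjusted p = 0.570). The Stmn2 body, 52.078 kb long, held 50.2 to 64.4 CPM in the 6 WT libraries against 42.9 and 46.4 in input (log2 0.26, SE 0.09, edgeR adjusted p = 0.0523, which does not pass). It passed with TMM scaling (0.38, adjusted p = 0.019) and without proliferating replicates 1 (0.0236) or 2 (0.0463) or differentiating replicate 3 (0.0461). The Stmn2 body was not called over IgG (log2 0.16, SE 0.11, edgeR adjusted p = 0.516).

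Gap43 (gene ID 14432, chr16:42248552-42340651) held nearly the same CPM in its window at both stages, 1.32, 1.25 and 1.18 in proliferating WT and 1.12, 1.25 and 1.46 in differentiating WT libraries. The inputs were at 1.18 and 0.552 CPM, on 14 and 7 counts. The log2 over input was 0.08 ± 0.08 in proliferating and 1.20 ± 0.20 in differentiating libraries (SD, n = 3 each), and that of IgG was 0.01 and 1.39. The test of this difference between stages gave log2 1.14 (SE 0.80, edgeR adjusted p = 0.632). None of the 7 members tested for it passed, beside 0.0278% of all 21557 windows, whose median was −0.37. The Gap43 body was at 80.8 CPM or more in every WT library and at 79.8 and 79.2 in the inputs (log2 0.18, SE 0.07, edgeR adjusted p = 0.0762). It passed with TMM scaling (0.30, adjusted p = 0.0277) and without proliferating replicate 1 (0.21, adjusted p = 0.011). Per kb of the body, the IgG libraries held 0.984 and 1.09 CPM and the inputs 0.866 and 0.860. The body was not called over IgG (log2 −0.08, SE 0.09, edgeR adjusted p = 0.672). The window pooled over stages was not called over input (0.62, SE 0.38, edgeR adjusted p = 0.296).

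Stmn1 (gene ID 16765, chr4:134468320-134473843) held 2.20, 2.50 and 2.36 CPM in the window in proliferating WT and 1.99, 1.33 and 0.820 in differentiating WT libraries, 1.60 and 1.89 in the inputs and 1.58 and 0.722 in the IgG controls. The proliferating libraries lay above both inputs, by a log2 of 0.56 ± 0.09 over their own, and 2 of the 3 differentiating ones below theirs. Pooled over the stages the difference from input was −0.01 (SE 0.33, edgeR adjusted p = 0.991). The 95% interval, −0.66 to 0.64, leaves room for a 1.5-fold difference either way. The Stmn1 body did not differ past the threshold from input (log2 −0.13, SE 0.16, edgeR adjusted p = 0.55).

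Neither filament gene carried more signal than input at its start by the test. Ina (alpha-internexin, gene ID 226180, chr19:47014681-47025327) held 1.32, 1.25 and 1.05 CPM in the window in proliferating WT and 1.12, 0.704 and 0.703 in differentiating WT libraries, each below the input of its stage (1.68 and 1.18). The difference did not pass (log2 −0.51, SE 0.36, edgeR adjusted p = 0.369), although the Ina promoter held 32 CpG pairs. Over IgG the Ina body was not called (log2 −0.24, SE 0.25, edgeR adjusted p = 0.664). Its body, at 7.92, 8.77 and 7.09 CPM in the 3 WT libraries of proliferating cells and 9.32, 5.95 and 8.84 after differentiation against 11.5 and 10.5 in input, was just past the threshold (log2 −0.46, SE 0.16, edgeR adjusted p = 0.0497). This call was lost in 9 of 13 alternatives: with TMM scaling (−0.34, adjusted p = 0.148), with other tools and filters, and without proliferating replicates 2 (0.0626) or 3 (0.115), differentiating replicate 2 (0.0673), or the proliferating (0.336) or differentiating input (0.195). Nefl (neurofilament light chain, gene ID 18039, chr14:68083863-68089095) held 2.20, 1.75 and 0.788 CPM in proliferating WT and 1.35, 0.626 and 0.820 in differentiating WT libraries, 1.18 and 1.34 in the inputs and 2.77 and 0.722 in the IgG controls. The highest of these 10 values was an IgG library. Its window (log2 −0.16, SE 0.36, edgeR adjusted p = 0.816) and its body (−0.37, SE 0.23, adjusted p = 0.24) did not differ from input past the threshold. Nefm, a related gene, lies 30.4 kb from Nefl.

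**Figure D3:**
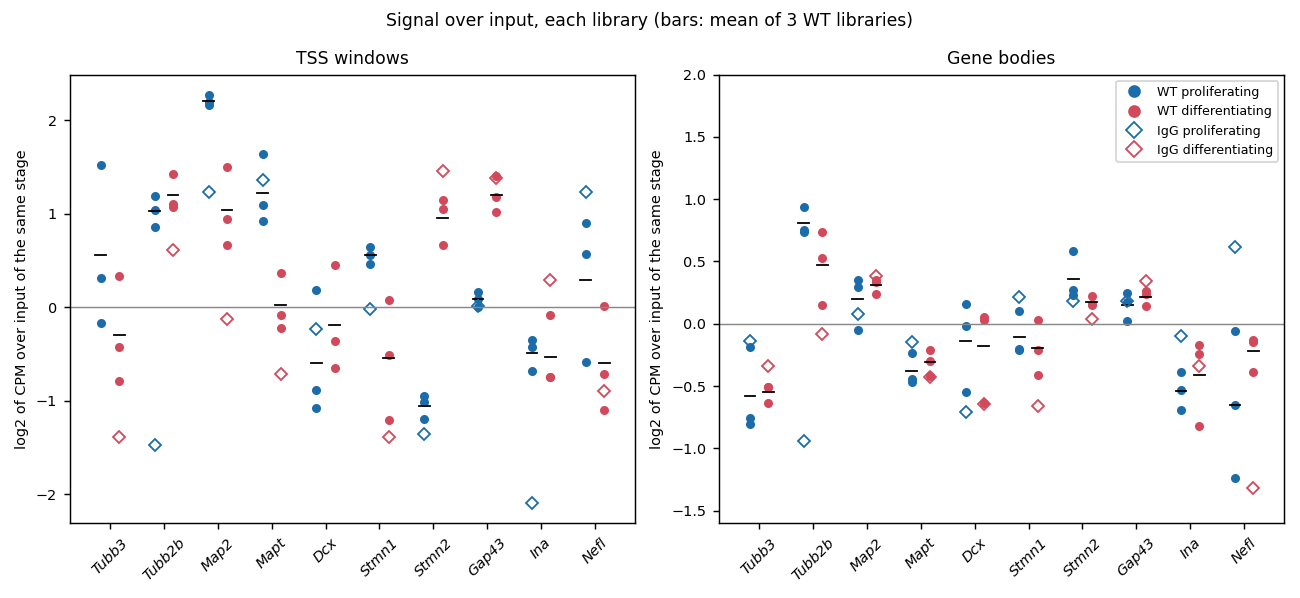
Log2 of CPM over the input of the same stage for TSS windows (left) and gene bodies (right); filled points are WT libraries, black bars their mean over 3, open diamonds the IgG libraries. At Stmn2 and Gap43 the IgG values move between stages with the WT values, but both are divided by the same single input of the stage. Those inputs held 12 and 5 counts at Stmn2 and 14 and 7 at Gap43. Only Map2 and Tubb2b were called higher at the window.

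Across the stages, 6 of the 10 windows had enough counts and none passed in edgeR's test (n = 3 each, TMM scaling), beside 6.45% of all 19477 windows (2.04% higher and 4.42% lower). The values were −0.57 (SE 0.33, adjusted p = 0.303) for Tubb2b, −0.40 (SE 0.29, 0.421) for Map2, −0.40 (SE 0.32, 0.472) for Mapt and −0.32 (SE 0.32, 0.577) for Stmn1. Nefl gave −0.14 (SE 0.41, 0.866) and Gap43 0.56 (SE 0.39, 0.385), the only positive value. At an unadjusted p under 0.05, 0 of these 6 members and 4430 of all windows passed. The direction overall depends on the scaling. With gene body totals as library sizes the median of all windows was −0.47 in place of 0.03 and the calls were 64 higher and 4996 lower in place of 397 and 860, while DESeq2 with its own size factors called 19 higher and 569 lower. With the totals Tubb2b (−1.06, adjusted p = 0.0122), Map2 (−0.90, 0.024) and Mapt (−0.90, 0.0341) passed as lower in differentiating cells, each further down than the median window. Left out of the test were Tubb3, Dcx, Stmn2 and Ina, which were under a mean count of 10 and gave −0.37, 0.82, 1.03 and −0.11 with a minimum of 1, none past the threshold.

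Summed over the 10 genes the windows held 17.4, 15.8 and 16.4 CPM in the 3 WT libraries of proliferating cells and 13.8, 9.23 and 10.1 after differentiation, 11.1 and 9.85 in the inputs and 11.5 and 7.94 in the IgG controls. The sum was thus 1.49-fold input in proliferating libraries (log2 0.57 ± 0.07, SD, n = 3) and 1.10-fold in differentiating ones (0.14 ± 0.30), where 1 of the 3 lay below input. Over all genes the TSS windows together took 4.77% ± 0.185 of gene body counts in proliferating and 3.45% ± 0.220 in differentiating WT libraries. This share was 3.36% and 3.23% in the inputs and 3.34% and 2.90% in IgG, so windows of all genes also held more than input. Per 1e6 TSS counts, which takes out these differences in share, the 10 windows held 347 ± 30.7 and 318 ± 49.5, and the stages overlapped. The inputs held 331 and 305 on this scale and the IgG controls 344 and 274. WT libraries lay on both sides of the input of their stage. Summed gene bodies were 1.03-fold and 1.07-fold input. Against IgG no member passed, neither among the 5 windows tested (5.34% of all 13158 were called, 5.13% higher) nor among the 10 bodies (1.28% of all 23685 were called, 0.540% higher and 0.739% lower). The nearest of those tested were Tubb2b (window log2 1.51, SE 0.73, adjusted p = 0.177; body 1.14, SE 0.36, adjusted p = 0.138) and the Map2 window (1.04, SE 0.59, adjusted p = 0.255). With a minimum mean count of 1, the Tubb3 window gave 2.40 over IgG (SE 1.10, edgeR adjusted p = 0.250). It held 0 and 1 counts in the IgG libraries. With TMM scaling of the windows the calls over all genes changed from 675 higher and 27 lower to 15 and 38.

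A measure that needs no scaling between libraries is the density of counts per kb in the window relative to the rest of the same gene. Counts summed over the 3 proliferating WT libraries gave 3.31 for Map2, 2.99 for Nefl, 2.71 for Mapt, 2.05 for Stmn1 and 1.98 for Tubb3, all above the median of 1.71 over 21955 genes. In the differentiating libraries these ratios were 1.59, 0.886, 1.44, 1.27 and 1.08, beside a median of 1.32. Ina, Gap43, Tubb2b and Dcx lay below the median at both stages. They were at 1.55, 1.29, 1.26 and 1.01 in proliferating and 0.981, 1.30, 0.947 and 1.30 in differentiating libraries. The proliferating Tubb3 ratio was 2.89 in replicate 1 against 1.18 and 1.68 in replicates 2 and 3. That of Nefl rested on 23 window counts and 22 in the rest of the gene. In the inputs Map2 was at 0.833 and 0.940, Mapt at 0.804 and 1.09 and Tubb3 at 0.727 and 0.852. The medians there were 1.14 and 1.11. The proliferating IgG library also lay above its median of 1.12, at 1.86 for Map2, 2.32 for Mapt and 2.23 for Nefl, on 4, 6 and 7 window counts. In the differentiating IgG library Map2 was at 0.661 and Mapt at 0.890, on 2 counts each. Tubb3 was at 0 and 0.394 in the proliferating and differentiating IgG libraries, on 0 and 1 window counts. Stmn2 lay at the other end, at 0.470 and 0.770 in proliferating and differentiating WT libraries, lower than all but 1.27% and 3.96% of genes, and its inputs were 1.23 and 0.437. The share of the gene body count in the window was lower on average in differentiating libraries for 8 of the 10 members, as for 75.2% of all genes. It did not overlap between the stages for Map2, Mapt and Ina, which were lower (29.6% of 21704 genes with a mean window count of at least 5), and for Stmn2, which was higher (2.60%). For Map2 the share was 1.48%, 1.18% and 1.14% against 0.843%, 0.444% and 0.533%, and for Stmn2 0.877%, 0.778% and 1.02% against 1.62%, 1.21% and 1.59%. Each gave an exact two-sided permutation p of 0.1, the smallest that 3 against 3 libraries allow.

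**Figure D4:**
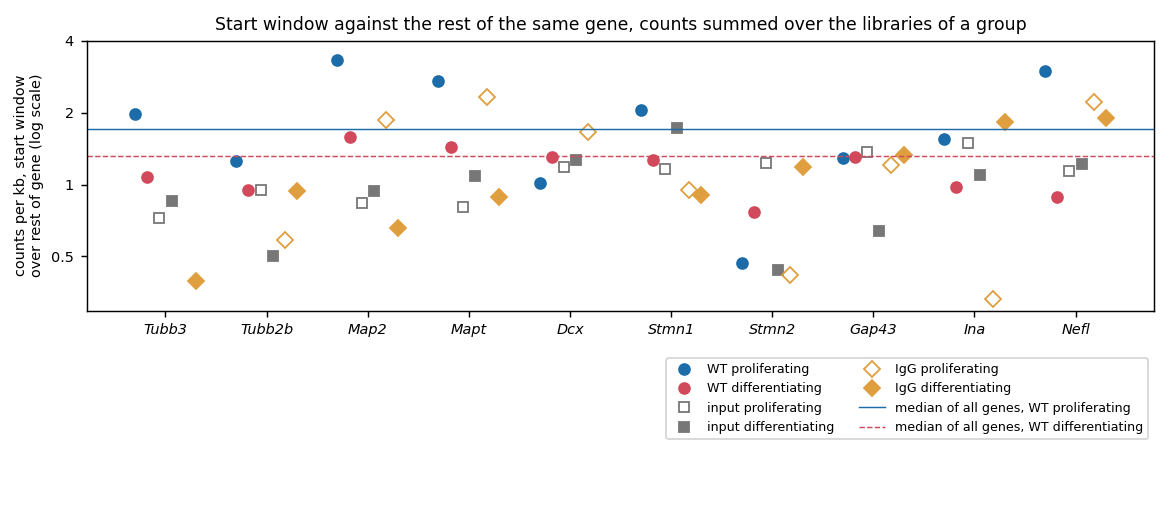
Ratio of counts per kb in the TSS window to counts per kb in the rest of the gene (log axis), from counts summed over the 3 WT libraries of a stage or from the single input or IgG library; 0 ratios of IgG (Tubb3 proliferating, Dcx differentiating) are not drawn, and lines are medians over all genes in proliferating (solid, 1.71) and differentiating (dashed, 1.32) WT libraries. Map2, Mapt and Tubb3 stand above 1 in WT and at or below about 1 in input. The proliferating IgG library is above 1 at Map2 and Mapt (1.86 and 2.32), and Stmn2 is below 1 in both WT groups.

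In the Hbo1 null libraries the 10 TSS windows together held 0 counts (proliferating) and 3 counts (differentiating). These are too few to compare: 3 counts are 9.36 CPM, with a 95% exact Poisson interval of 1.93 to 27.3 that covers the input sums, and 0 counts allow up to 3, which is 46.8 CPM, or 57.6 CPM at the upper end of the same interval. Gene bodies held 47 and 216 counts in all. Map2 was at 265 and 253 CPM on 17 and 81 counts, inside the 209 to 292 CPM of the 10 other libraries, and Mapt at 93.6 and 96.7 CPM on 6 and 31 counts, inside 81.5 to 116. Tubb3 was not: the proliferating null library had 8 counts in its body, or 125 CPM (95% interval 53.9 to 246), and the differentiating one 25 counts, or 78.0 CPM (50.5 to 115), where the 10 other libraries ran from 6.76 to 11.8. At the level of the input 0.756 and 3.66 counts would fall there. Of the 25 counts 1 lay in the TSS window. The 4 other genes within 50 kb, Spire2, Tcf25, Mc1r and Def8, had lower bounds of at most 21.6 CPM in both null libraries. In both null libraries 58 of 27095 genes, 0.214%, had a lower bound above all 10 other libraries, Tubb3 among them but no other member. It was not alone among tubulins: the Tubb6 body held 7 and 20 counts, or 109 CPM (43.9 to 225) and 62.4 CPM (38.1 to 96.3), against 9.31 to 15.8 in the 10 other libraries. Tubb6 was the only other gene of the 4 lists of further cytoskeleton genes, and 1 of 15 tubulins, with both lower bounds above. By the value alone 6 of these 15 lay above the 10 other libraries at both stages (Tuba1c, Tuba8, Tubb2a, Tubb4a, Tubb5 and Tubb6), as did the members Tubb3, Tubb2b, Dcx and Ina, beside 5.10% of all genes. Tuba1c held 109 and 21.8 CPM on 7 counts each, against at most 11.2, and Tubb2a 31.2 and 28.1 CPM on 2 and 9 counts, against at most 6.33. In the proliferating null library 1 count is 15.6 CPM, which is above the 11.5 CPM that Ina reached at most in the 10 other libraries. Ina lay above on 1 and 7 counts and Tubb2b on 2 and 5, and the 5.10% is over genes of every level. There was 1 null library per stage, so these values have no replicate within a stage. Where in a gene the counts lie is known only for the window, and what sets these values was not tested. How reads that fit more than 1 tubulin gene were counted is not stated, so these values may not be independent. Dcx, at 93.6 CPM in each, had 6 and 30 counts, and Stmn1 and Nefl had 0 in both. Intervals cover counting error only.

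**Figure D5:**
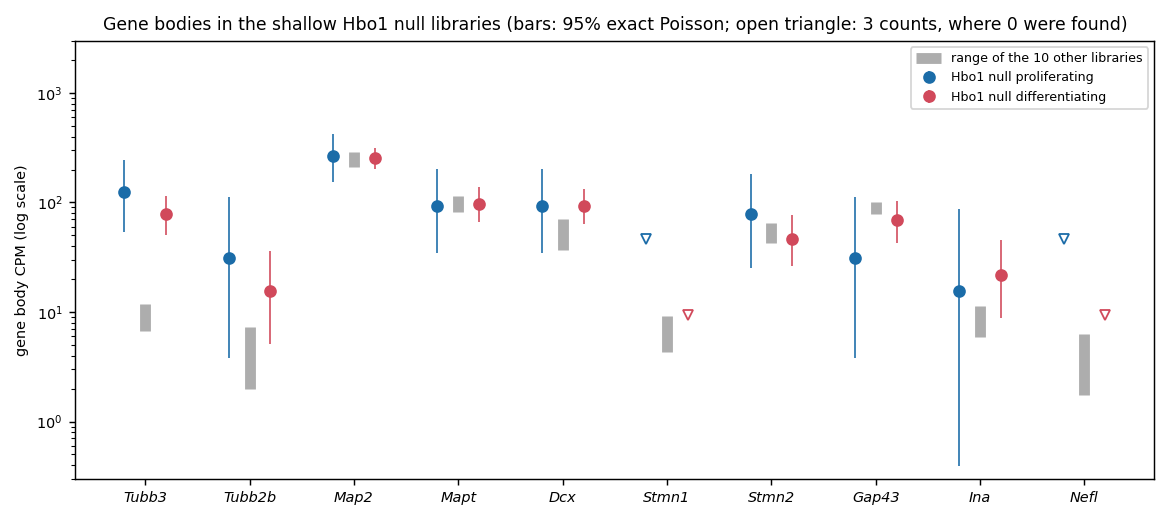
Gene body CPM (log axis) in the Hbo1 null library of each stage, with 95% exact Poisson intervals; grey bars span the 10 other libraries and open triangles mark 3 counts where 0 were found. Tubb3 at 125 and 78.0 CPM lies above its grey bar of 6.76 to 11.8 in both.

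Other genes of the same machinery, from 4 lists, were read in the same way. Of 14 further tubulin windows tested, 3 were higher than input: Tuba1a (log2 1.80, SE 0.41, edgeR adjusted p = 0.00128), Tubb6 (1.31, adjusted p = 0.0149) and Tubb2a (1.14, adjusted p = 0.0423), which was lost in 7 of 12 alternatives, among them leaving out proliferating replicate 1 (0.0537) or 3 (0.199) or differentiating replicate 1 (0.0727). Of 36 windows of other microtubule-binding and motor proteins 14 were higher, led by Kif1b, a kinesin motor (1.65, adjusted p = 0.0029), and including Map1b, another neuronal microtubule-associated protein (1.39, adjusted p = 0.00696). Of 22 windows of growth cone and actin genes 9 were higher, among them Enah, an actin regulator of filopodia (2.19, SE 0.44, adjusted p = 0.000247), and Marcksl1 (1.71, adjusted p = 0.00198). Of 12 other filament genes 3 were higher: Vim (1.78, adjusted p = 0.00116), Lmnb1 (1.67, adjusted p = 0.00308) and Nes (1.60, adjusted p = 0.00433). Vim and Nes encode vimentin and nestin, the filaments of neural stem cells, and Lmnb1 a nuclear lamin. Over all windows 11.6% were higher and 0.881% lower. None of the windows tested in these lists was lower. Without the proliferating input only 25 of all windows passed, and none of those named here was among them (adjusted p 0.116 to 0.891). The median log2 was 0.33, 0.84, 0.87 and 0.49 in the 4 lists and 0.62 over the 7 members tested, beside 0.25 over all windows.

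Between the stages the other lists did contain windows that passed. Fscn1, which bundles actin, fell most (log2 −1.20, SE 0.27, edgeR adjusted p = 0.00171), from 5.94, 9.52 and 5.78 CPM to 2.79, 1.88 and 1.76. Cfl1 and Pfn1, which turn over actin, fell as well (−1.06, adjusted p = 0.00885, and −0.99, adjusted p = 0.0254), making 3 of 21 growth cone windows lower, where 4.42% of all windows were. Clasp2, Mapre1 and Clasp1, which bind the growing ends of microtubules, fell by 1.03, 0.89 and 0.90 on the log2 scale (adjusted p = 0.0123, 0.0409 and 0.0424), 3 of 35. Tubb6 was the only tubulin of 14 to pass (−0.93, adjusted p = 0.0312). Nes fell (−1.12, adjusted p = 0.00525) and so did Lmnb1 (−0.98, adjusted p = 0.0127), while Gfap, the filament of astrocytes, rose (1.41, SE 0.35, adjusted p = 0.0058), from 0.881, 0.751 and 1.45 CPM to 2.15, 1.96 and 2.17. The Gfap window was at 1.35 and 1.18 CPM in input, so its proliferating value lay below input in 2 of 3 libraries. Relative to the change between the inputs none of these lists had a window that passed. List medians between stages were −0.20 (tubulins), −0.35 (microtubule proteins), −0.17 (growth cone) and −0.14 (filaments), against −0.36 over the 6 members tested. The call of Fscn1 was kept in all 11 alternatives. With gene body totals in place of TMM, Gfap did not pass (0.91, adjusted p = 0.058), and in DESeq2 neither Mapre1 (adjusted p = 0.0834) nor Clasp1 (0.0729) did. Without both WT libraries with many Y counts, Tubb6, Mapre1, Clasp1, Gfap and Lmnb1 no longer passed (adjusted p 0.0627 to 0.228). Without proliferating replicate 3 this held for Cfl1, Clasp2, Mapre1, Clasp1, Pfn1, Nes, Lmnb1 and Tubb6 (0.0656 to 0.578). Without differentiating replicate 2 it held for Clasp1, Clasp2, Lmnb1, Mapre1, Pfn1 and Tubb6 (0.0581 or above), and without differentiating replicate 3 for Clasp1, Lmnb1, Mapre1, Pfn1 and Tubb6 (0.0683 to 0.212). Fewer calls were lost without proliferating replicate 1 (Tubb6, 0.0672), proliferating replicate 2 (Clasp1, 0.0746, and Pfn1, 0.0734) or differentiating replicate 1 (Clasp1, 0.0759, and Mapre1, 0.109).

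Over the 10 WT, input and IgG libraries, the windows most like that of Map2 among 36 with a mean count of at least 30 were Tnrc18 (Pearson r = 0.951), Chaserr (0.904) and Rbm39 (0.897). For Stmn1 they were Hjurp (0.851), Duxf3 (0.750) and Trpm8 (0.670). These are correlations of log2 CPM across libraries that fall into WT, input and IgG groups and share their depth, given as a description.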

How the data were processed

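H3K14ac ChIP-seq, input and IgG libraries of mouse neural stem and progenitor cells were read from the raw counts per gene that the authors deposited, in a table of TSS windows and a table of gene bodies. Each column of the tables equalled the 1 file deposited for that library and count (24 of 24). Per the submitters' processing notes, bcl2fastq and featureCounts were used with mm10. The aligner, versions and treatment of reads with several matches are not given in the sources used here. Of the gene IDs 25204 were matched to RefSeq (GRCm38.p6) and 1891 were not. The members and gene lists were chosen with earlier results of these data known. Groups follow the labels. Input and IgG are known from the sample titles, descriptions and column names. The antibody field names anti-H3K14ac for them too, and every value over input or IgG rests on those names. The column names give each input as that of WT replicate 1 of its stage. Counts of the single-copy Y genes came to 47.1 CPM in proliferating WT replicate 1 and 6.57 CPM in the proliferating input.

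The quasi-likelihood test of edgeR 4.0.16 (R 4.3.3, prior count 0.125, 2-sided) was run over all features whose counts averaged at least 10 in the libraries of the fit, with Benjamini-Hochberg adjustment and a threshold of 0.05. The comparison of stages used TMM scaling within each table. Comparisons with input or IgG were adjusted for stage and scaled by gene body totals, and the single control library of a stage was assumed to vary like the WT libraries. The same WT libraries enter every comparison, so these are not independent. Settings were checked on simulated counts with 200 changed genes; in gene bodies between stages 34%, 73.5% and 93.5% of changes of 1.5, 2 and 4-fold were called. Log2 over input was taken from CPM without a pseudocount. Genes named beside the members were the 4 with the smallest adjusted p per list and comparison, or examples among them, and the 3 windows most like the 2 members with the most window counts. The alternatives were DESeq2 1.42.0, other scalings and filters, a replicate block and leaving out libraries. No 2 WT libraries of a stage agreed within sampling noise (chi-square per degree of freedom 1.44 to 5.78 over genes).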

Additional observations from a re-analysis of the deposited data

Results flagged for a closer look

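The Stmn2 TSS window lay on opposite sides of input at the 2 stages. Log2 over input averaged −1.05 in the 3 proliferating WT libraries, all below 0, and 0.96 in the 3 differentiating ones, all above. The difference was not tested with the minimum mean count of 10, since the window held fewer. With a minimum of 1 it did not pass (log2 1.97, SE 1.01, edgeR adjusted p = 0.570). The inputs differed too, at 12 and 5 counts, and IgG, divided by the same inputs, moved the same way. The part of the inputs in the difference was not tested.

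The Tubb3 gene body stood out in the Hbo1 null libraries, which enter no comparison of single genes: 125 CPM in the proliferating and 78.0 CPM in the differentiating one, against 6.76 to 11.8 in the 10 other libraries. The counts were 8 and 25, with 1 library per stage. The Tubb6 body was high in them as well, at 109 and 62.4 CPM against 9.31 to 15.8, so Tubb3 was not the only high tubulin. The treatment of reads with several matches is not given, so the values of tubulin genes may not be independent. What sets these values was not tested.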

How the results depend on the processing

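Replicate numbers were shared by the stages, and no label says whether they pair the WT libraries. Correlations between libraries showed no pairing by number, but cannot decide whether a number stands for a shared culture. Deviations from the stage means correlated at −0.24, 0.18 and −0.32 for same-numbered pairs over 24564 gene bodies and −0.01, −0.03 and −0.00024 over 19477 windows. Most libraries correlated better with another number. With the number as a replicate block, 761 windows were called between stages in place of 1257, 280 windows over input in place of 2697 and 3318 bodies over input in place of 7398. The Stmn1 and Nefl windows over input then changed sign, to 0.29 and 0.41, not called in either fit. The Tubb2b window and the Tubb2b, Tubb3, Map2, Mapt and Ina bodies lost their calls over input under the block, and the Map2 window kept it. Among the other genes named, the block lost Clasp2, Mapre1, Clasp1 and Tubb6 between stages (adjusted p 0.0531 to 0.0965), and over input Tubb2a, Tubb6, Kif1b, Map1b, Marcksl1, Nes and Lmnb1 (0.0562 to 0.157).

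Counts of calls moved by over 1.5 times as follows, and the causes were not tested. With gene body totals in place of TMM, 5060 windows differed between stages (64 higher, 4996 lower), and the Tubb3 body changed sign, to −0.025. DESeq2 called 588 windows (19 higher, 569 lower) and 182 bodies in place of 40 between stages; over IgG it called 371 windows in place of 702 and 491 bodies in place of 303. TMM scaling left 53 windows over IgG. For the stage difference over input 6 windows passed, and 0 with TMM, with DESeq2, with a mean count of at least 1 and without both WT libraries with high Y counts, an alternative chosen after seeing the data. That alternative gave 645 windows and 446 bodies between stages, 1710 windows over input, 1150 bodies over IgG and, for the stage difference over input, 16 bodies in place of 0. The Stmn1 window over input was then 0.17 and the Dcx body 0.049, both reversed and uncalled. No body passed for the stage difference over input in edgeR, where 528 had an unadjusted p under 0.05, nor with TMM or DESeq2. For bodies over input, TMM scaling changed 2094 higher and 5304 lower to 2909 and 2744.

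Leaving out 1 library at a time gave 319 to 1246 windows and 3 to 66 bodies between stages. It gave 25 to 3990 windows and 0 to 10231 bodies over input, 5 to 1035 windows and 74 to 701 bodies over IgG, and 0 to 65 windows and 0 to 0 bodies for the stage difference over input. The lowest counts over input and IgG came without the proliferating control. Log2 between stages ran from −0.63 to 0.17 for the Nefl window, −0.58 to 0.049 for the Stmn1 window and −0.093 to 0.19 for the Tubb3 body; over input it ran from −0.50 to 0.55 for the Stmn1 window and −0.53 to 0.29 for the Nefl window, none of them called. Adjusted p was NA in DESeq2 for 5 members each in the windows between stages, over input and over IgG. The share in the window relative to the rest of the body gave no value for Nefl, whose window held the whole count of proliferating replicate 2; the 9 other members kept their direction. At this depth, 0% of simulated windows with 1.5-fold changes between stages were called.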
